A study of Mus musculus with 36 samples.

Results

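The rows described here are those taken to hold Slc3a2 and Slc7a5, the heavy and light chain of an amino acid transporter of the cell surface. They are 2 of the 27288 rows of the table, ENSMUSG00000010097 and ENSMUSG00000038496, and they were chosen on their response to homocysteic acid in these same libraries. RNA was measured in primary cortical neuron cultures from E15 embryos of CD1 mice, kept for 24 h after plating and then treated for 6 h. The 36 libraries form 6 groups of 6, and each of 6 culture batches gave 1 library to every group. The groups were an untreated control, sodium selenite at 0.1 (Se 0.1), sodium selenite at 1 (Se 1), 5 mM homocysteic acid (HCA), HCA with Se 0.1 and HCA with Se 1. Selenite doses carry no unit because the sample labels use mM and the series text uses micromolar. The labels write HCA in full as homocysteic acid, which resembles glutamate and blocks cystine uptake through system xc-, whereas the series text describes HCA as an inhibitor of ferroptosis.

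Slc3a2, also called 4F2hc or CD98, is a glycoprotein that crosses the membrane once and carries several light chains to the cell surface through a disulphide bond. Slc7a5, or LAT1, is the light chain that exchanges intracellular glutamine for leucine and other large neutral amino acids, and with Slc3a2 it feeds the amino acid supply that mTORC1 senses. Slc7a11, or xCT, pairs with the same heavy chain to form system xc-, which exchanges glutamate for cystine. Transcription of these transporters is known to rise through Atf4, a factor translated when amino acids run short.

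The name of each gene is an inference. The deposited symbols of the 2 rows are Nxf1 and Slc19a3, but the table's values fit the transcript that stands immediately before those of the labelled gene when transcripts are sorted by identifier. Among 9796 rows of genes with 1 annotated transcript, that shift would leave 7 rows on odorant or pheromone receptors and 32 on ribosomal protein genes. With no shift the counts are 97 and 1, and at the other shifts tried they run from 161 to 180 and from 13 to 18. Under the shift, ENSMUSG00000010097 holds 1 coding transcript, ENSMUST00000010239 of Slc3a2, at 8707617 to 8713879 on the minus strand of chromosome 19 (GRCm38, 1819 nt), with 9 non-coding transcripts of other genes. The other row holds the single coding transcript of Slc7a5, ENSMUST00000045557, at 121881150 to 121907694 on the minus strand of chromosome 8 (3517 nt). It also holds ENSMUST00000164472 of the zinc finger gene Zfp637 (1098 nt, chromosome 6) and the long non-coding RNA Gm13499, so its values below are those of the Slc7a5 row and not of Slc7a5 alone.

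The sequence before the start of Slc3a2 is shown because promoters of genes induced by amino acid shortage often carry a C/EBP-ATF response element. That of Aars, the gene most like Slc3a2 in these libraries among rows with 1 coding gene, carries it. Both stretches come from RefSeq promoter windows (GRCm38.p6) of 250 bases before to 50 after the start. Capitals mark a GC box in Slc3a2 (80 bases up to the start, minus strand, chr19:8713898-8713977) and, in Aars, the response element read on the opposite strand (plus strand, chr8:111033710-111033757).
Slc3a2: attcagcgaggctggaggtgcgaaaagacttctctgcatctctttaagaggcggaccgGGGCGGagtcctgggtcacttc
Aars: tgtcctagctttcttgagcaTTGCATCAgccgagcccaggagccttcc
On either strand the window of Slc3a2 held 0 matches to the response element (TGATGNAA), to an E-box (CACGTG) or to the core of an antioxidant response element (TGACNNNGC), and 2 to a GC box (GGGCGG). That of Aars held 2 response elements, 1 E-box and 1 antioxidant core. Of all 32851 windows, 3.97% held the response element, 7.15% the E-box, 12.4% the antioxidant core and 35.7% the GC box. Only 1 window was matched for Slc3a2, so other annotated starts were not all covered. The longest coding transcript begins at 8723369, and the sequence before that start was not searched. A match here is a run of letters and says nothing of binding.

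Libraries held from 34.3 to 56.9 M estimated counts, and rows of ribosomal RNA type took from 1.70% to 88.6% of them. The median share was 81.2% in control and 46.9% in HCA, so the depth left for other genes differed between groups. Control replicates 5 and 6 and Se 0.1 replicate 5 stood apart, with a median correlation of 0.654 to 0.790 with the other libraries against 0.819 to 0.919 for the other 33. The Slc3a2 row had between 31 and 12910 counts per library and the Slc7a5 row between 29 and 16877. Levels are given as CPM, a row's count scaled to the library's size, on sizes adjusted by the TMM method. The TMM factors ran from 0.0309 in Se 0.1 replicate 5 to 4.19 in HCA with Se 1 replicate 1, and the levels depend on them. Slc3a2 had 6240 counts of 39.2 M outside ribosomal rows in Se 0.1 replicate 6, and 853 of 8.62 M in HCA replicate 3. By those shares the first stood higher, while in CPM they stood at 39.0 and 55.9. The same held for the Slc7a5 row, with 5386 and 1017 counts. This pair was not the only one. For Slc3a2, control replicate 3 (3046 counts of 25.5 M, 33.6 CPM) stood higher by share than HCA replicate 3 of its own batch. It also stood higher than HCA replicate 4 (3170 of 27.6 M, 46.6 CPM). For the Slc7a5 row it stood lower than both, with 2677 counts against 1017 and 4908. The full separation of libraries with HCA from those without it, described below, therefore rests on the TMM factors. In bulk RNA, fewer cells of a type and less RNA per cell cannot be told apart.

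In TMM-scaled CPM, Slc3a2 was lower in every group without HCA than in any group with it. In control libraries its level was 25.1 at the lowest, 36.1 at the median and 39.5 CPM at the highest. With Se 0.1 these values were 23.2, 33.6 and 39.0 CPM, and with Se 1 they were 28.8, 34.7 and 39.5 CPM. The 3 groups without HCA overlapped throughout. HCA gave 46.6, 55.4 and 67.1 CPM, HCA with Se 0.1 gave 52.3, 61.0 and 63.4 CPM, and HCA with Se 1 gave 54.5, 57.9 and 64.0 CPM. In TMM-scaled CPM the lowest of the 18 libraries with HCA, at 46.6, lay above the highest of the 18 without it, at 39.5. The lowest libraries without HCA rested on few reads: the 23.2 CPM of Se 0.1 replicate 5 came from 31 counts (95% Poisson interval 15.7 to 32.9 CPM, counting error only) and the 25.1 CPM of control replicate 5 from 88 counts (20.1 to 30.9 CPM).

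The Slc7a5 row showed the same division with a wider gap. Control libraries ran from 21.0 CPM through a median of 28.9 to 29.8 CPM, Se 0.1 from 21.7 through 27.8 to 33.7 CPM, and Se 1 from 24.8 through 29.9 to 44.3 CPM. Replicates 5 and 6 of Se 1, at 42.8 and 44.3 CPM, were the highest libraries without HCA, and the other 4 of that group lay at 30.5 CPM or below. With HCA the row ran from 66.7 through 70.8 to 85.4 CPM, with HCA and Se 0.1 from 62.7 through 72.7 to 96.2 CPM, and with HCA and Se 1 from 65.8 through 70.3 to 86.8 CPM. Again, in TMM-scaled CPM, no library with HCA fell as low as any without it.

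**Figure D1:**
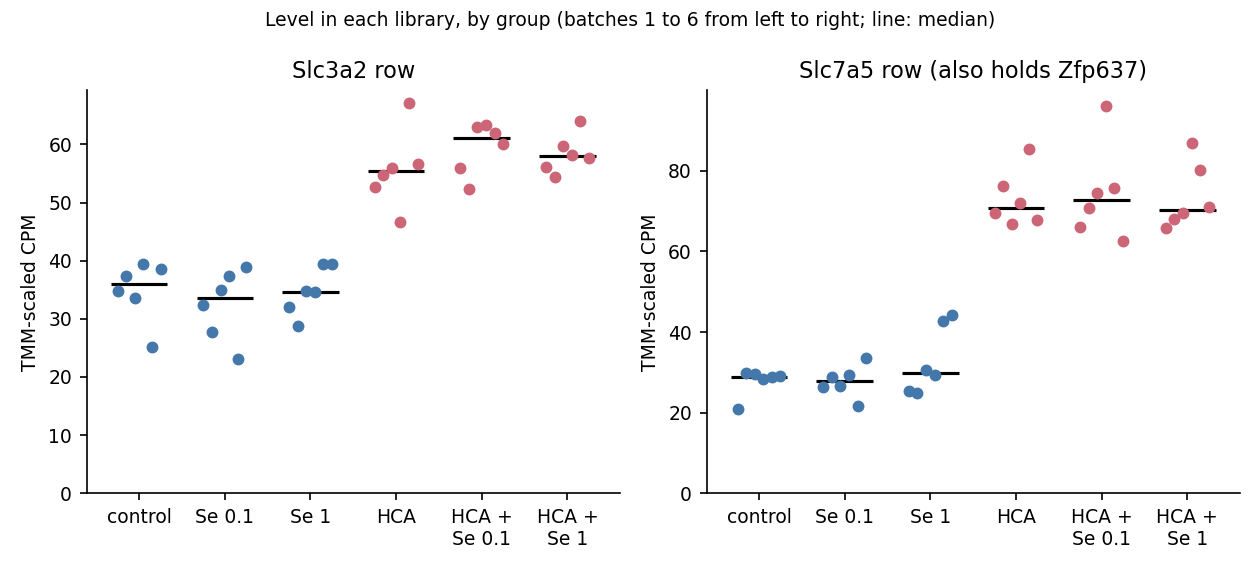
TMM-scaled CPM of the Slc3a2 row (left) and the Slc7a5 row (right) in each of the 36 libraries, with 6 points per group in batch order and a line at the group's median. All 18 libraries with HCA (red) lie above all 18 without it (blue), from 46.6 CPM against at most 39.5 CPM for Slc3a2 and from 62.7 CPM against at most 44.3 CPM for the Slc7a5 row.

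Ordered by median, the level of Slc3a2 ran from Se 0.1 through Se 1, control, HCA and HCA with Se 1 to HCA with Se 0.1. The order for the Slc7a5 row was Se 0.1, control, Se 1, HCA with Se 1, HCA and HCA with Se 0.1. In both orders a gap without overlapping libraries lay between the groups without HCA and those with it, and every other pair of neighbours overlapped.

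The size of the response to HCA is given as a description, without a test, because the rows were chosen on it. With HCA, Slc3a2 was higher than in control by 0.67 ± 0.12 (log2 fold change ± SE from edgeR, n = 6 and 6), which is 1.59-fold. The difference was 0.86 ± 0.12 at Se 0.1 and 0.74 ± 0.12 at Se 1. The Slc7a5 row was higher by 1.40 ± 0.14 against control, or 2.63-fold, by 1.41 ± 0.14 at Se 0.1 and by 1.17 ± 0.14 at Se 1. In TMM-scaled CPM, each of these differences was positive in 6 of 6 batches. Within batches the log2 difference against control ran from 0.24 to 1.42 for Slc3a2, the highest being batch 5 with its thinly read control, and from 1.17 to 1.73 for the Slc7a5 row. Leaving out the 3 libraries that stood apart gave 0.62 against control and 0.79 at Se 0.1 for Slc3a2, and 1.43 and 1.36 for the Slc7a5 row.

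Of 25588 rows tested, 58 (0.227%) passed an adjusted p of 0.05 for HCA against control, 41 (0.160%) for HCA at Se 0.1 and 39 (0.152%) at Se 1, by edgeR's quasi-likelihood test with Benjamini-Hochberg adjustment over all rows. With the batch as a block the last count was 61. An unadjusted p under 0.05 was found in 7.87%, 5.06% and 3.33% of all rows in the same order. Rows whose HCA group lay wholly above its comparison group numbered 155 (0.606%) against control, 147 (0.574%) at Se 0.1 and 116 (0.453%) at Se 1. Both rows were in every one of these sets, which their choice on this response fixed.

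Selenite alone did not move either row past the threshold. Against control, Slc3a2 differed by -0.09 ± 0.12 at Se 0.1 (95% interval -0.34 to 0.16) and by -0.0011 ± 0.12 at Se 1 (-0.25 to 0.25). The Slc7a5 row differed by 0.0095 ± 0.14 at Se 0.1 (-0.28 to 0.30) and by 0.24 ± 0.14 at Se 1 (-0.05 to 0.53), the last being higher in 5 of 6 batches. In the presence of HCA, selenite at 0.1 and 1 changed Slc3a2 by 0.10 ± 0.12 (-0.15 to 0.34) and 0.07 ± 0.12 (-0.18 to 0.32), and the Slc7a5 row by 0.03 ± 0.14 (-0.26 to 0.31) and 0.01 ± 0.14 (-0.27 to 0.30). The lowest of the 8 adjusted p values was 0.978, for the Slc7a5 row at Se 1 against control (unadjusted p = 0.0992, edgeR). Every interval holds changes in both directions, so equal levels are not shown. These contrasts also share libraries with the HCA contrasts on which the rows were chosen.

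The response to HCA was also compared between selenite doses through the interaction term. That term is a difference of HCA contrasts, on which the rows were chosen, so its p values are not independent of the choice. For Slc3a2 the response was larger by 0.19 ± 0.17 at Se 0.1 (95% interval -0.16 to 0.54) and by 0.07 ± 0.17 at Se 1 (-0.28 to 0.42) than without selenite. For the Slc7a5 row it differed by 0.02 ± 0.20 (-0.39 to 0.43) and by -0.23 ± 0.20 (-0.63 to 0.18). None passed, with adjusted p from edgeR at 1.00 to 2 decimals in all 4. Over all rows the 4 selenite contrasts and the 2 interactions each gave 0 calls of 25588 (0%) by edgeR. Without batch 3, edgeR called 5 rows for Se 0.1 and 11 for Se 1 against control, neither member among them. Unadjusted p lay under 0.05 in 1098 and 1363 rows for Se 0.1 and Se 1 against control, in 258 and 207 rows for the same doses within HCA, and in 629 and 594 rows for the interactions. DESeq2 called 11, 19, 2, 3, 4 and 8 rows in the same order, neither row among them, and limma voom called 0 in each.

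**Figure D2:**
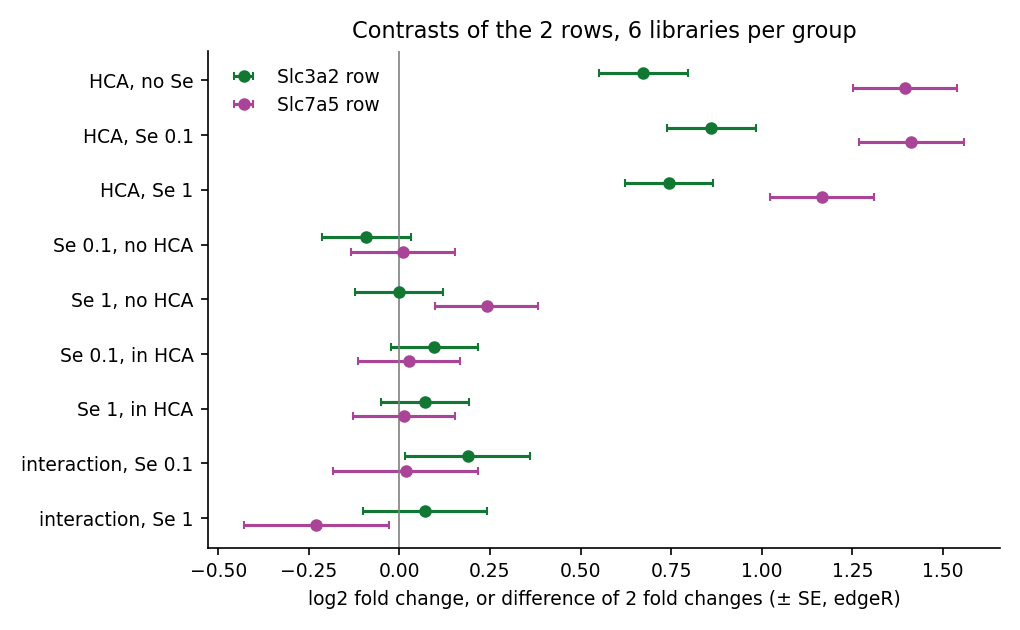
Log2 fold changes of the Slc3a2 row (green) and the Slc7a5 row (purple) for the 3 HCA contrasts, the 4 selenite contrasts and the 2 interactions, with bars of 1 SE from edgeR and 6 libraries per group. The HCA contrasts sit between 0.67 and 1.41, and the selenite contrasts and interactions between -0.23 and 0.24.

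The balance between the light and the heavy chain was read from the ratio of the 2 rows within a library, which no scaling of libraries can alter. In control libraries the ratio of Slc7a5 row counts to Slc3a2 counts was 0.601 at the lowest, 0.777 at the median and 1.15 at the highest. At Se 0.1 it was 0.766, 0.837 and 1.04, and at Se 1 it was 0.790, 0.869 and 1.12. With HCA it was 1.19, 1.30 and 1.55, with HCA and Se 0.1 it was 1.04, 1.20 and 1.52, and with HCA and Se 1 it was 1.16, 1.24 and 1.49. The ratio was higher with HCA in 6 of 6 batches at each dose, and the groups of each such pair did not overlap. The highest control value came from replicate 5, with 101 and 88 counts; without it and the other 2 libraries that stood apart the control ratio reached at most 0.879.

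In log2 terms the ratio with HCA was higher by 0.72 ± 0.38 (SD of the 6 batch differences) against control, by 0.53 ± 0.24 at Se 0.1 and by 0.45 ± 0.25 at Se 1, again without a test. Divided by the lengths of the 2 coding transcripts, and taking each row's counts to come from that transcript alone, the median ratio per kilobase was 0.402 in control and 0.671 in HCA. On that scale the Slc7a5 row stayed below the Slc3a2 row in all 36 libraries, the highest value being 0.801.

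Selenite left the ratio within the spread of the libraries when groups were compared. Exact two-sided permutation tests of 6 libraries against 6 gave p = 0.496 and 0.206 for Se 0.1 and Se 1 against control, and 0.403 and 0.409 within HCA. The 2 interactions, tested by flipping the signs of the 6 batch differences exactly, gave p = 0.281 and 0.0938. Adjusted over the 6 tests, all lay between 0.491 and 0.496. Within batches, HCA with Se 0.1 had a lower ratio than HCA in 6 of 6 batches, a difference of -0.08 ± 0.08 on the log2 scale (SD, n = 6). The exact test on these batch differences gave p = 0.0312, the smallest that 6 batches allow, and 0.188 after adjustment over the 6 tests. With that floor, 1 contrast alone could not have passed adjustment, so the adjusted value decides nothing. HCA with Se 1 had a higher ratio than HCA in 1 of 6 batches, a difference of -0.07 ± 0.08 (SD, n = 6). The same exact test gave p = 0.125, and 0.188 after adjustment.

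**Figure D3:**
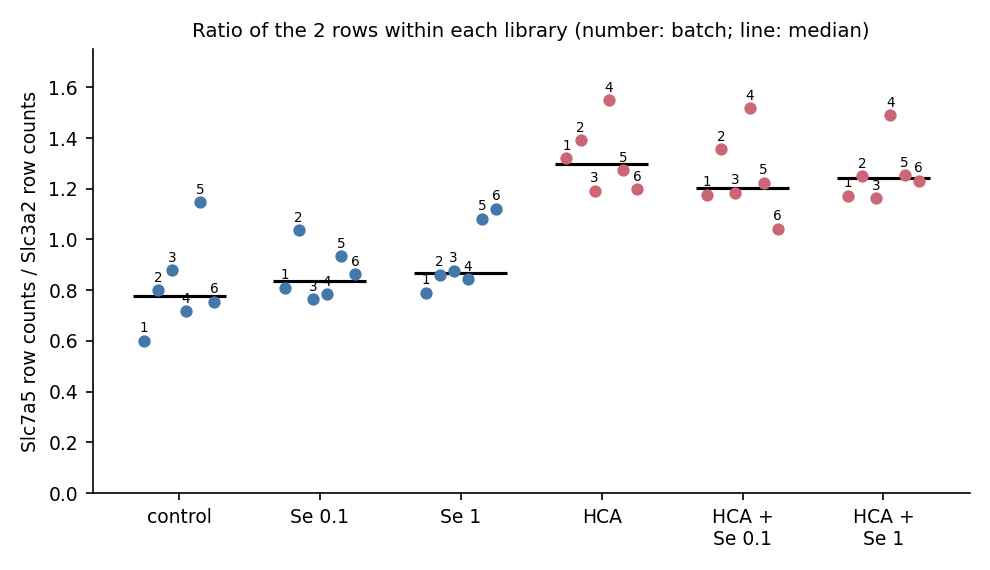
Counts of the Slc7a5 row divided by counts of the Slc3a2 row in each of the 36 libraries (vertical axis, no unit), by group, with the batch number above each point and a line at the group's median. Medians lie at 0.777 to 0.869 without HCA (blue) and at 1.20 to 1.30 with it (red), and batch 4 is the highest in all 3 groups with HCA.

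The 2 rows were correlated among the libraries without HCA, while among those with HCA no correlation passed adjustment. The difference between these sets was not tested. Among the 18 without HCA, Pearson's r of log2 CPM was 0.56 (permutation p = 0.0168, adjusted 0.0335) and Spearman's rho 0.57 (permutation p = 0.0156, adjusted 0.0335). Without the 2 libraries farthest from the median of Slc3a2, replicate 5 of control and of Se 0.1, r was 0.54. Among the 18 with HCA, r was 0.48 (permutation p = 0.0461, adjusted 0.0597) and rho 0.42 (permutation p = 0.0803, adjusted 0.0803), and without HCA replicates 4 and 5 r was 0.49. Taken as deviations from group means, r was 0.57 without HCA and 0.49 with it. Adjustment covers 8 relations, and both rows share the scaling of their library. The permutations moved all 18 libraries freely and so took no account of the batch. A batch holds too few libraries of either kind for a value of its own.

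**Figure D4:**
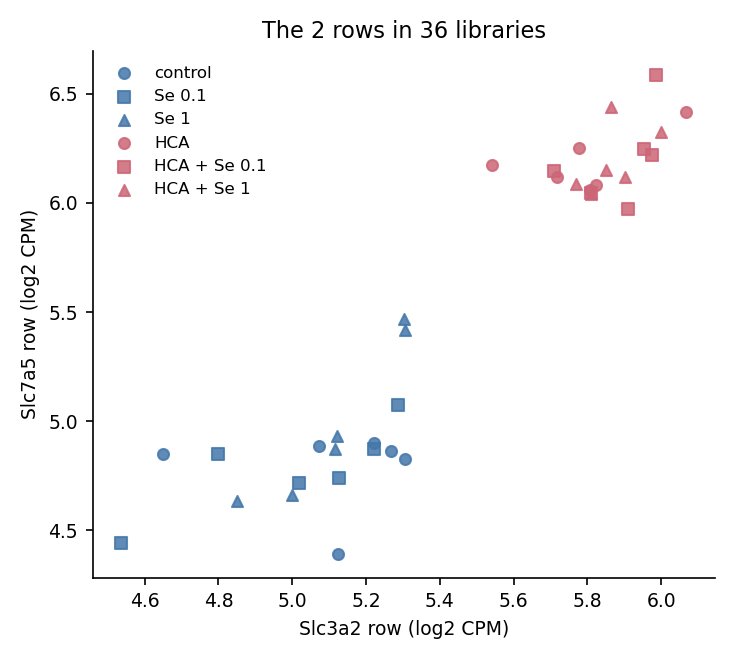
Log2 CPM of the Slc7a5 row against log2 CPM of the Slc3a2 row in the 36 libraries, with groups marked by shape and HCA by colour. The libraries form 2 separate clouds, 18 without HCA at the lower left and 18 with it at the upper right, and within the clouds r is 0.56 and 0.48.

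Among rows with 1 coding gene, the row most like both members was that of the alanyl-tRNA synthetase Aars. Rows shared by more genes were not searched. Of these, the Slc7a5 row had r = 0.933 with Slc3a2, and the shared row of Chac1 had r = 0.959 with the Slc7a5 row. Likeness was Pearson's r of log2 CPM over all 36 libraries among 8999 rows with 1 coding gene, and it follows mostly from the step between libraries with and without HCA. Closest to Slc3a2 were Aars, which charges alanine to its tRNA (deposited symbol Cdh15, r = 0.96), Cars, which does the same for cysteine (Cd164l2, 0.91), Aldh18a1, which makes the precursor of proline (Tctn3, 0.90), the bZIP factor Nfil3 (C330011M18Rik, 0.89) and Ccdc184 (2210010C04Rik, 0.86). Closest to the Slc7a5 row were Aars (0.95), Slc3a2 itself (0.93), Cars (0.93), Nfil3 (0.92) and Eif4ebp1, an inhibitor of translation that mTORC1 holds in check (Chrna6, 0.91). Aars, Cars and Nfil3 were thus near both.

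Within the libraries of 1 kind the likeness differed from gene to gene. For Aars, r with Slc3a2 was 0.86 over the 18 libraries without HCA and 0.68 over the 18 with it, and with the Slc7a5 row 0.76 and 0.80. For Cars, r with Slc3a2 was 0.49 without HCA and -0.09 with it. Aars stood at 76.9 ± 12.6 CPM (SD, n = 6) in control and 152 ± 11.6 CPM in HCA, and Cars at 11.3 ± 3.28 and 31.1 ± 3.20 CPM. Of the 8 genes in question, RefSeq windows were matched for Slc3a2, Aars, Aldh18a1, Nfil3 and Ccdc184, the others being Slc7a5, Cars and Eif4ebp1. The response element was in the window of Aars alone among these 5, and Aldh18a1 had 1 E-box.

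Other transcripts of the same genes stand in other rows, mostly at low counts and together with other genes. Slc3a2 has 8 annotated coding transcripts, of which 7 have a row in the table. The longest, ENSMUST00000170157 (2813 nt), lies with Myh1, a myosin of adult skeletal muscle, in the row with deposited symbol Myh2, and it contains 93.1% of the runs of 31 bases of ENSMUST00000010239. That row ran from 5.70 through 6.25 to 12.1 CPM in control and from 8.09 through 11.1 to 14.1 CPM in HCA. Its log2 fold changes with HCA were 0.61 ± 0.20 against control, 1.15 ± 0.21 at Se 0.1 and 0.80 ± 0.20 at Se 1. A short transcript alone in its row (Pik3c2a, 378 nt) stood at a median of 0.604 CPM in control and 0.936 CPM in HCA, with differences of 0.58 ± 0.45, 0.08 ± 0.43 and 1.33 ± 0.42.

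The remaining 4 rows with a coding transcript of Slc3a2 hold 4 to 8 coding genes each. The log2 fold change with HCA in the row with deposited symbol Snhg1 was -0.34 ± 0.23 against control, 0.14 ± 0.23 at Se 0.1 and 0.14 ± 0.22 at Se 1. In the same order it was -0.44 ± 0.37, 0.32 ± 0.37 and -0.0074 ± 0.36 in the Exosc5 row. It was 1.80 ± 0.33, 0.85 ± 0.32 and 0.87 ± 0.31 in the Ntrk3 row, and -0.39 ± 0.26, -0.38 ± 0.27 and -0.23 ± 0.26 in the Kdm3a row. Which of their genes moved cannot be read from them. How Salmon divided reads between transcripts that share most of their sequence was not tested.

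The Slc7a5 row has a second coding gene. The coding transcripts of Slc7a5 and Zfp637 in that row share 0% of their runs of 31 bases, so reads of the one would not match the other. All runs of the Zfp637 transcript (100%) recur in other transcripts of Zfp637, and 5 further rows hold coding ones. Those 5 rows had mean counts of 35.0 to 316 per library. Their log2 fold changes with HCA against control lay between -0.02 and 0.98, with 4 of 5 above 0. The row in which Zfp637 is the single coding gene (Snhg15) changed by 0.98 ± 0.53 against control, 0.28 ± 0.50 at Se 0.1 and -0.52 ± 0.48 at Se 1. The share of Zfp637 in the 28.9 CPM of the control median was not tested.

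The other light chains that Slc3a2 carries could be seen only poorly. Slc7a11 lies in a single row with Dag1 and Naa15 (deposited symbol Naa15), which ran from 16.9 through 27.7 to 49.4 CPM in control and from 16.5 through 30.4 to 48.5 CPM in HCA. It differed by -0.03 ± 0.34 (edgeR adjusted p = 1.00), and the groups overlapped over their whole range. Slc7a6, or y+LAT2, lay with Atxn1l (Zfp90) at a median of 8.73 CPM in control and 10.8 CPM in HCA, a difference of 0.26 ± 0.18 (adjusted p = 0.83). Slc7a8, or LAT2, lay with Apbb2 (C6) at 2.92 and 4.55 CPM, a difference of 0.47 ± 0.27 (adjusted p = 0.718). Slc7a7 and Slc7a10 had rows of their own at medians of 0.148 and 0.193 CPM in control, with differences of 0.80 ± 1.26 and -0.03 ± 0.78. Coding transcripts of Slc7a7 stand in 6 rows, and those of Slc7a10 and of Slc7a6 in 3 each, so 1 row does not give the gene's level. A row of Slc7a7 with Sbk1 (E4f1) had medians of 284 CPM in control and 298 CPM in HCA, a difference of 0.08 ± 0.19. A row of Slc7a10 with 4 other coding genes (Baiap2) had 20.8 and 30.0 CPM, a difference of 0.47 ± 0.16 (edgeR adjusted p = 0.384).

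Among the other amino acid transporters, 1 gene with its own row and 1 shared row passed the test. The list was drawn up with earlier results of these data known, so its p values are no independent test. Slc7a3, or CAT3, a carrier of arginine and lysine, was alone in its row (Olfr980). It ran from 0.0541 through 0.324 to 1.43 CPM in control, from 0 through 0.151 to 0.661 CPM at Se 1 and from 0.95 through 3.43 to 5.03 CPM in HCA with Se 1. HCA raised it at Se 1 by 3.88 ± 0.82 (edgeR adjusted p = 0.0273, higher in 6 of 6 batches). Against control the difference was 2.42 ± 0.81 (adjusted p = 0.341) and at Se 0.1 it was 2.69 ± 0.83 (adjusted p = 0.409), each also higher in 6 of 6 batches. The call at Se 1 was lost without batch 1, 2, 4 or 6 in turn and when the 2 groups were fitted alone, with adjusted p up to 0.481.

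Slc7a1, or CAT1, another carrier of arginine and lysine, shares its row with Gm3012 (Hsd17b13). That row ran from 5.42 through 9.49 to 10.7 CPM in control and from 12.7 through 20.4 to 26.7 CPM in HCA, with no overlap. It rose by 1.15 ± 0.19 against control (edgeR adjusted p = 0.00146), by 1.25 ± 0.20 at Se 0.1 (4.2e-04) and by 1.34 ± 0.19 at Se 1 (1.2e-04), in 6 of 6 batches each time. Fitted with the compared groups alone, the first and the last had adjusted p of 0.0502 and 0.0676. The row was named after its values were seen, so its p values describe it and are no independent test.

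**Figure D5:**
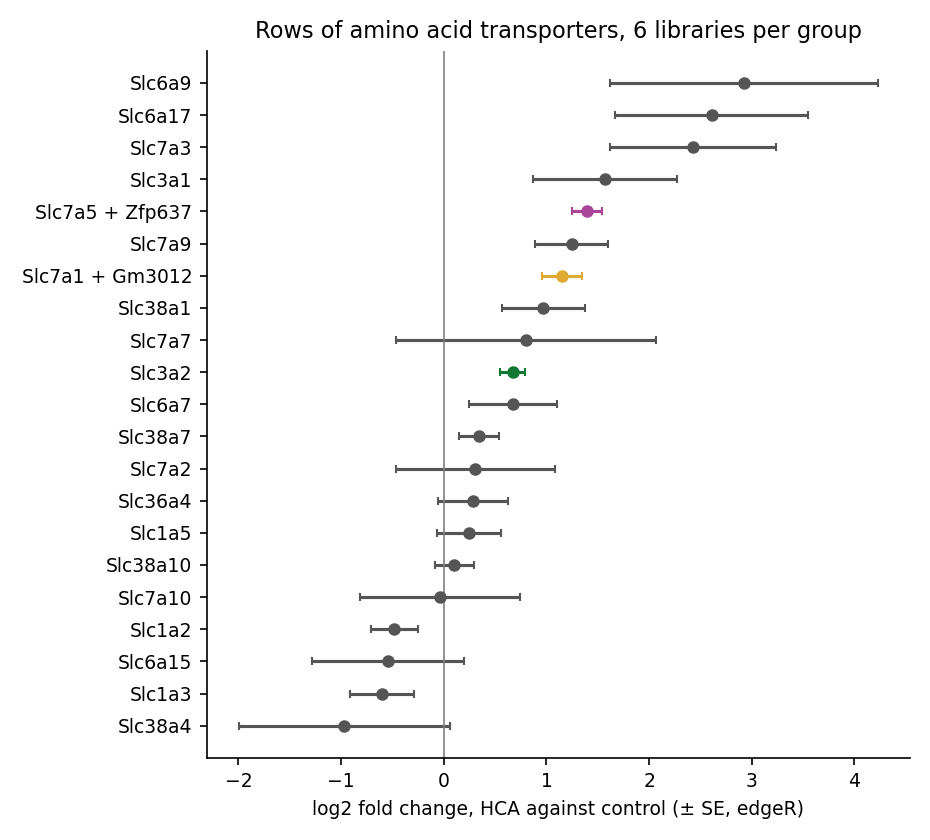
Log2 fold change of HCA against control for the 18 amino acid transporters with a tested row of their own (grey), the shared row of Slc7a1 (yellow) and the rows of Slc3a2 (green) and Slc7a5 (purple), with bars of 1 SE from edgeR, 6 libraries per group. Slc7a1, Slc7a5 and Slc3a2 lie at 1.15, 1.40 and 0.67 with bars of 0.12 to 0.19, while the bars of the genes above the Slc7a5 row, Slc6a9, Slc6a17, Slc7a3 and Slc3a1, are several times as wide.

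Of the 49 transporters listed besides the pair, 18 had a tested row of their own and 30 lay only in rows shared with other genes. Against control, 0 of the 18 passed in either direction by edgeR, DESeq2 or limma voom, and 7 of 18 had an unadjusted p under 0.05, against 7.87% of all rows. At Se 0.1 0 of 18 passed by any of the 3 tools, with 4 of 18 under 0.05 unadjusted (5.06% of all rows), and at Se 1 Slc7a3 alone passed by each. The median log2 fold change of the 18 was 0.33 against control, 0.28 at Se 0.1 and 0.11 at Se 1, beside 0.08, 0.03 and -0.02 over all rows. Over the 135 rows with at least 1 coding transcript from the list, 1, 1 and 2 rows passed, all higher. Of all rows, 0.227%, 0.160% and 0.152% passed by edgeR in the same order. At such shares 0 of 18 says little about the list. For the 4 selenite contrasts 0 of the 18 passed by edgeR, with 2, 1, 0 and 0 under 0.05 unadjusted.

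Of 53 rows with a coding transcript of a listed gene of glutathione and cystine handling, 1 passed by edgeR in each HCA contrast, being higher. Chac1, which degrades glutathione, shares a row with Zbtb20 (deposited symbol Atrn) that ran from 5.75 through 7.81 to 10.8 CPM in control and from 21.6 through 23.3 to 28.5 CPM in HCA. That row rose by 1.56 ± 0.23 against control (edgeR adjusted p = 2.97e-04), 1.65 ± 0.24 at Se 0.1 (1.2e-04) and 1.39 ± 0.23 at Se 1 (0.00107). The last was lost when the 2 groups were fitted alone (adjusted p = 0.16). The list was drawn up with earlier results of these data known, and the row was named after its values were seen. Its p values therefore describe it and are no independent test. Whether Chac1 or Zbtb20 moved cannot be read from the row. Of the 15 listed genes 6 had a tested row of their own, and 0 of 6 passed by edgeR in any of the 3 contrasts. Of all rows 0.227%, 0.160% and 0.152% passed, so 0 of 6 says little about the list. Unadjusted p lay under 0.05 in 2, 1 and 2 of 6, beside 7.87%, 5.06% and 3.33% of all rows. Mat2a, which makes S-adenosylmethionine, was called lower by DESeq2 in all 3 contrasts and by limma voom at Se 1, while edgeR put it at -0.34, -0.43 and -0.51 without a call.

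Of 68 rows with a coding transcript of a listed regulator of mTORC1 by amino acids, 1 passed by edgeR in each HCA contrast. It holds Sesn2, a leucine sensor, and 4 other coding genes, Pdlim7, Phactr4, Tnnt3 and Zscan2 (deposited symbol Rcc1). Which of these genes moved cannot be read from it. That row ran from 5.53 through 6.30 to 9.41 CPM in control and from 16.8 through 19.5 to 22.5 CPM in HCA. It rose by 1.48 ± 0.16 against control, 1.67 ± 0.17 at Se 0.1 and 1.64 ± 0.16 at Se 1, with edgeR adjusted p of 7.7e-07 at most. This list, too, was drawn up with earlier results known, and the row was named after its values were seen. These p values therefore describe the row and are no independent test. Over the 36 libraries its r was 0.95 with the Slc7a5 row and 0.86 with Slc3a2, and that of the Chac1 row 0.96 and 0.86. Of the 32 listed genes 15 had a tested row of their own, and 0 of 15 passed in any of the 3 contrasts by edgeR, DESeq2 or limma voom. Of all rows 0.227%, 0.160% and 0.152% passed by edgeR, so 0 of 15 says little about the list. Unadjusted p lay under 0.05 in 1, 2 and 0 of 15, beside the same shares of all rows, 7.87%, 5.06% and 3.33%.

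The label of neuronal cultures was checked on marker genes: Tubb3, a tubulin of neurons, stood at 767 ± 89.1 CPM (SD, n = 6) in control. The other neuronal markers with a row were far lower, among them the neuronal transcription factor Neurod2 at 48.3 CPM, the synaptic vesicle protein Syp at 36.4 CPM, Rbfox3 at 3.31 CPM and Snap25 at 3.23 CPM, with Map2 below these. The astrocyte marker Slc1a3 stood at 24.2 CPM and the progenitor marker Nes at 37.1 CPM, both above those last 3. Each marker was read through 1 row, and coding transcripts of Map2 stand in 14 rows. Of 12 neuronal markers 8 had a row, and their summed level, mostly Tubb3, was 751 to 1023 CPM in control (median 912) and 920 to 1339 CPM in HCA (median 1116). The 4 of 7 astrocyte markers with a row summed to 26.9 to 44.3 CPM in control (median 33.2) and 13.7 to 33.5 CPM in HCA (median 21.8). The 2 of 5 progenitor markers with a row summed to 1.43 to 59.2 CPM (median 41.6) and 13.4 to 35.0 CPM (median 27.1). The sums for the oligodendrocyte lineage (4 of 7) and microglia (3 of 6) overlapped between the groups, at medians of 9.91 and 8.21 CPM and of 2.89 and 2.25 CPM. Those for endothelium (1 of 4) and fibroblasts (2 of 4) had medians of 0.251 and 0.300 CPM and of 9.75 and 11.1 CPM. The fibroblast sum varied widely between libraries, from 4.73 to 169 CPM in control and from 5.29 to 189 CPM in HCA. Markers of 1 list could differ in direction, which a sum hides. From control to HCA, mean Olig2 went from 4.44 to 2.54 CPM and Cspg4 from 5.04 to 6.07 CPM. Nes went from 37.1 to 24.5 CPM and Pax6 from 0.583 to 1.40 CPM. Among neuronal markers Neurod2 went from 48.3 to 44.9 CPM and Gad1 from 9.45 to 19.2 CPM. No marker passed in any HCA contrast by edgeR, none with a row was at 0 throughout, and the part of these shifts in the response of Slc3a2 and Slc7a5 was not tested.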

How the data were processed

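The authors deposited a table of estimated counts, 27288 rows by 36 libraries. Alignment and counting tools are STAR and Salmon, on GRCm38, per the submitters' processing notes, and their versions, the annotation release and the filter on rows are not given in the sources used here. Ribosomal RNA was depleted, per the labels' protocols. Estimated counts were rounded and fitted with edgeR 4.0.16 (R 4.3.3; filterByExpr, minimum count 10, TMM, quasi-likelihood test, groups only), leaving 25588 rows, with limma 3.58.1 and DESeq2 1.42.0 as alternatives. On simulated data the fit was checked first. Those libraries shared 1 composition apart from the rows set to change, with 1 dispersion and no batch. That check therefore does not cover TMM factors as uneven as those of these libraries. Log2 CPM used a prior count of 2. Permutations numbered 100000 where not exact (SciPy 1.17.1). Annotation was GENCODE vM21.

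The members and gene lists were chosen with earlier results of these data known. Named genes are the 2 rows, the other rows of their coding transcripts, the light chains, and up to 8 listed genes per HCA contrast past the threshold. They also include the 5 rows most like each member among rows with 1 coding gene. The rows shared by Slc7a1, Chac1 and Sesn2, Mat2a, and Slc6a9, Slc6a17 and Slc3a1 in a caption, were named after their values were seen. A gene was read through its row of highest mean count with 1 coding gene. The labels give the culture batch, which pairs libraries across groups. Deviations from group means correlated at a median of 0.08 within a batch and -0.01 between batches. The labels do not say how many litters a batch drew on.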

Additional observations from a re-analysis of the deposited data

Results flagged for a closer look

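2 values stood far from the rest of their group by Dixon's criterion for 6 samples, among 18 groups of values examined, where chance alone gives about 1 in 20. Control replicate 1 was low for the Slc7a5 row, at 21.0 CPM against 28.4 to 29.8 CPM in the other 5, a gap of 0.835 of the group's range. The ratio of the Slc7a5 row to Slc3a2 was high in replicate 4 of HCA with Se 1, at 1.49 against 1.16 to 1.25, a gap of 0.723. Replicate 4 was also the highest of the other groups with HCA, at 1.55 and 1.52.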

How the results depend on the processing

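The HCA contrasts of both rows kept their direction and moved by less than 1 SD between replicates in all 84 values from the other settings. Among these were DESeq2, limma voom, no filter, DESeq2 size factors, ribosomal rows left out and each batch left out. Each of them scaled libraries by TMM or by DESeq2 size factors. How far the contrasts depend on such scaling was therefore not tested. With the batch as a block, HCA against control was 0.67 ± 0.12 for Slc3a2 and 1.40 ± 0.13 for the Slc7a5 row, and the block changed no call of either row. Over all rows it gave 74, 54 and 61 calls in the 3 HCA contrasts against 58, 41 and 39. Leaving out 1 batch at a time gave 0.54 to 0.75 and 1.34 to 1.44.

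Signs turned only where a difference was near 0 and had not passed. For Se 1 against control in Slc3a2 no filter gave 0.0077, and single batches left out gave -0.11 to 0.068. For Se 0.1 against control in the Slc7a5 row, DESeq2 size factors gave -0.040, DESeq2 -0.028 and the compared groups alone -0.040 (-0.040 to 0.071 without 1 batch). Within HCA, Se 0.1 gave -0.064 to 0.071 and Se 1 -0.064 to 0.047 without 1 batch, and Se 1 gave -0.0012 with DESeq2 size factors, -0.0085 with limma voom and -0.0016 with DESeq2. The interaction at Se 0.1 gave -0.013 with limma voom and -0.064 without the 3 libraries that stood apart (-0.067 to 0.092 without 1 batch). The cause was not tested.

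Of the transporters, counting every row with any coding transcript gave 1, 1 and 2 past the threshold in the 3 HCA contrasts. The compared groups alone gave 0 at Se 1, and single batches left out gave 0 to 1. The glutathione and cystine list gave 1 in each HCA contrast by every row or by DESeq2, and 1 at Se 1 by limma voom, and the sensing list gave 1 in each by every row. These alternatives for the last 2 lists, and the tests of batch differences in the ratio, were chosen after seeing the data. Over all rows, DESeq2 called 175, 154 and 120 in the 3 HCA contrasts and limma voom 35, 67 and 98, with 58%, 58% and 57% higher by DESeq2 against 88%, 90% and 82% by edgeR. The compared groups alone gave 22, 23 and 22. The inference of row names, the 2 genes of the Slc7a5 row and counts as low as 29 limit what these values show.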
